A study of Mus musculus with 7 samples.

Results

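The 8 genes described here carry the growth hormone signal through the liver: the receptor gene Ghr, the kinase gene Jak2, the transcription factor genes Stat5a and Stat5b, the feedback inhibitor genes Socs2 and Cish, and the secreted-product genes Igf1 and Igfals. They were chosen by gene symbol and joined across libraries by Ensembl identifier, and are 8 of 51426 genes listed in the count tables. All 8 passed the filter on low counts and were among the 14754 genes tested. The livers came from male mice, all labelled with the strain C57BL/6J, 3 wild-type (WT) and 4 with a whole-body knockout of Tet1 (TET1 KO), and every mouse had eaten a high-fat diet (HFD) for 16 weeks from an age of 8 weeks. TET1 is an enzyme that oxidizes 5-methylcytosine in DNA. The labels call the knockout total. The study writes the genotype of the sequenced mice as TET1-/-, its name for the conventional null allele, which it lists as B6;129S4-Tet1tm1.1Jae/J, and whether that line was backcrossed is not given in the sources used here. The gene was lost throughout the body, and direct effects in liver and effects from other tissues cannot be told apart. No liver of a mouse on normal chow was analysed here, and the comparison is therefore WT against TET1 KO under HFD alone.

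Growth hormone, released by the pituitary in pulses, binds its receptor on hepatocytes and activates the receptor-bound kinase JAK2. JAK2 phosphorylates STAT5A and STAT5B, which enter the nucleus and bind DNA at paired half-sites of the form TTCNNNGAA. Among the genes they switch on in liver are Igf1, Igfals, Socs2 and Cish, and the proteins made from the last pair act back on the receptor complex to end the signal.

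The letters of that site, which reads the same on both strands, were searched in the windows that RefSeq gives around gene starts on GRCm38.p6, each 300 bases long with 250 bases before the start and 50 from it on. Of the 8 genes, 7 had an entry, with 12 windows in all. No window was held for Socs2. The motif stood in 3 windows of 2 genes, Cish and Igfals, and in 8.3% of all 32851 mouse windows of this length. These 3 windows are shown because they belong to a feedback gene and a secreted-product gene whose transcript levels are described below, with the 9 matching letters in capitals.
Cish, chr9:107296409-107296708, plus strand: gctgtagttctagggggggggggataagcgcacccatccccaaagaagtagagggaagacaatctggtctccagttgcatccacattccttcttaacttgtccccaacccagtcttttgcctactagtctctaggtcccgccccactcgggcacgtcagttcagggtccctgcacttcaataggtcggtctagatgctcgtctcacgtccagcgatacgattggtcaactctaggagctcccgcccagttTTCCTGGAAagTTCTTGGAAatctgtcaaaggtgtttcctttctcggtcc
Igfals, chr17:24877594-24877893, plus strand: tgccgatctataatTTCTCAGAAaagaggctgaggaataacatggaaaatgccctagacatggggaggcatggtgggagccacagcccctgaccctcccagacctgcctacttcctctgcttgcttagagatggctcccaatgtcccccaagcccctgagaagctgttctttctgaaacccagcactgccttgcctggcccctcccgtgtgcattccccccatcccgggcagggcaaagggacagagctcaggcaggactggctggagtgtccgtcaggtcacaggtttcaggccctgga
Igfals, second annotated start, chr17:24877981-24878280, plus strand: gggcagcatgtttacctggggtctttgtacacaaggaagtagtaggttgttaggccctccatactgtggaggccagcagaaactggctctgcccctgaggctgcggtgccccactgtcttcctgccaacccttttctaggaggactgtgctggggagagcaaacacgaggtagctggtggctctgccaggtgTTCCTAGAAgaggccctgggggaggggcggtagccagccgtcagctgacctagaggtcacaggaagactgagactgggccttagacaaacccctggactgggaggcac
The Cish window held 2 matches, TTCCTGGAA beginning at base 1 and TTCTTGGAA at base 12 counted from the annotated start, and 0.457% of all windows held 2 or more. In Igfals, TTCTCAGAA began at base -236 of the first annotated start and TTCCTAGAA at base -58 of the second. A match is a description of these letters and says nothing of whether STAT5 was bound in these livers.

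Counts assigned to genes summed to between 17937630 and 22746138 per WT library and to between 15005277 and 21246636 per TET1 KO library. The targeted gene could not be used to check the labels, since Tet1 (chr10:62804570-62887469) was covered by 1 to 4 counts in either genotype, at or near a floor of 3 counts. In a principal component analysis the first component held 48.7% of the variance, and WT scores from -56.9 to -19.4 stood apart from TET1 KO scores from 1.60 to 57.1. TET1 KO replicate 1 stood at the high end and WT replicate 2 at the low end. The hepatocyte marker list of 6 genes summed to between 66000 and 84500 CPM (counts per 1e6 counts of the library, TMM-normalized) in WT and between 74300 and 83200 CPM in TET1 KO, and no marker of the 8 cell type lists passed the edgeR test.

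No gene of the set passed the test between TET1 KO and WT livers. Of the 8, 0 passed an adjusted p of 0.05 in edgeR's quasi-likelihood test, where 2.02% of all tested genes did, 0 had an unadjusted p under 0.05, where 26.3% did, and 0 passed in DESeq2, where 9.14% of genes did. All 8 genes overlapped between the groups, while 22.5% of all tested genes did not. Their median log2 fold change, TET1 KO over WT, was 0.0871, against 0.0119 over all genes tested. With 3 and 4 livers the intervals were wide enough to hold moderate differences, and they are given for each gene in turn. In bulk tissue, fewer cells of a type and less RNA per cell cannot be told apart.

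**Figure D1:**
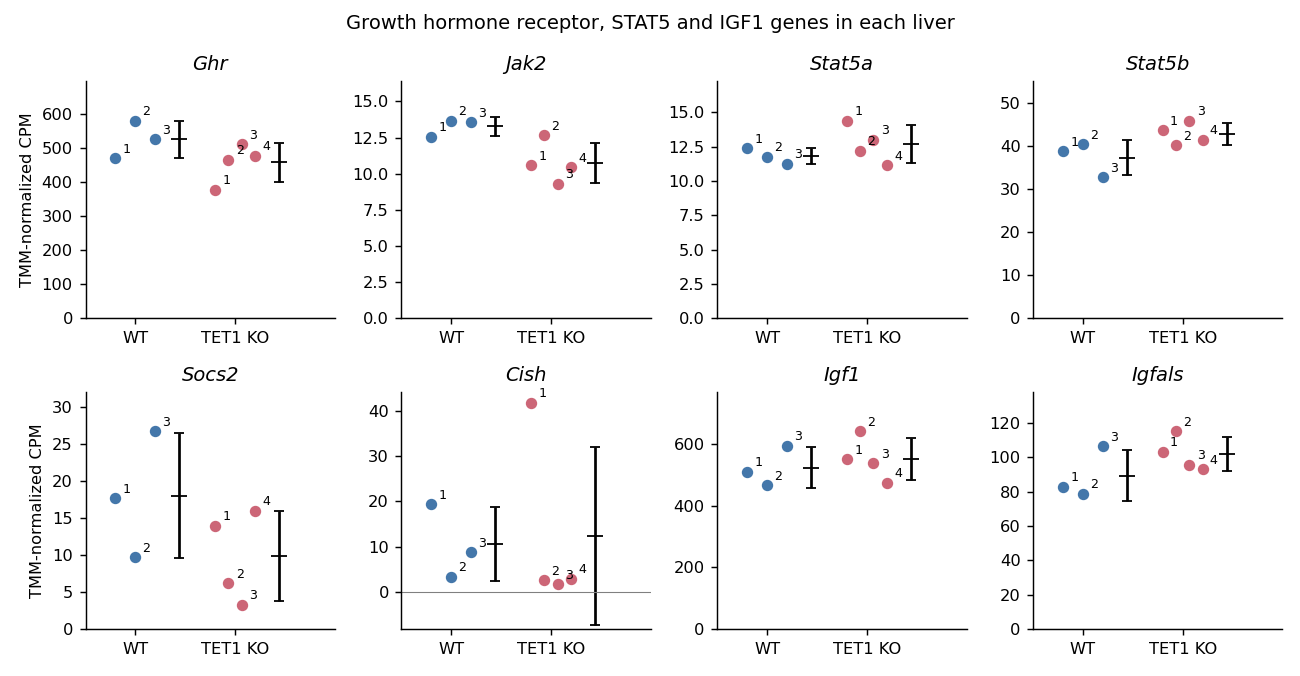
TMM-normalized CPM of the 8 genes in each liver (points, numbered by replicate; linear axes, 1 panel per gene), with the mean and SD of 3 WT and 4 TET1 KO livers as a bar beside the points. The 2 genotypes overlap in every panel, and Cish in TET1 KO replicate 1 stands at 41.8 CPM, above all other livers.

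Ghr (ENSMUSG00000055737, chr15:3317755-3583352), the gene of the growth hormone receptor, was at 470.9, 581.0 and 525.6 CPM in the WT livers and at 378.3, 466.3, 511.0 and 478.2 CPM in the TET1 KO livers. TET1 KO replicate 1 was the lowest of the 7, WT replicate 2 the highest, and the remaining livers interleaved. The means were 525.8 ± 55.0 CPM (SD, n = 3) and 458.5 ± 56.7 CPM (SD, n = 4). The log2 fold change was -0.20 (SE 0.16, 95% interval -0.55 to 0.15, adjusted p = 0.436), so the interval spans ratios of TET1 KO to WT from 0.686 to 1.11. The predicted gene Gm41254 overlaps Ghr, and the strand setting of the counting is not given in the sources used here.

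Jak2 (ENSMUSG00000024789, chr19:29251803-29313095) encodes the kinase that the receptor carries on its cytoplasmic tail. It was at 12.6, 13.7 and 13.6 CPM in WT and at 10.6, 12.7, 9.31 and 10.4 CPM in TET1 KO. TET1 KO replicates 1, 3 and 4 lay below all WT livers, and TET1 KO replicate 2 lay just above WT replicate 1. Jak2 had the smallest edgeR p of the set, 0.0681 before and 0.221 after adjustment, with a log2 fold change of -0.31 (SE 0.15, 95% interval -0.64 to 0.03). The exact two-sided permutation test over the 35 ways of dividing the livers gave p = 0.0857 for Jak2, where 0.0286 is the smallest value it can give.

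The 2 STAT5 genes lie next to each other on chromosome 11 and encode near-identical proteins, so that reads of shared sequence may have been split between them or left out in counting. Stat5a (ENSMUSG00000004043, chr11:100859351-100885169) was at 12.4, 11.8 and 11.3 CPM in WT and at 14.4, 12.2, 13.0 and 11.1 CPM in TET1 KO, with TET1 KO livers holding both the highest and the lowest value. Its log2 fold change was 0.10 (SE 0.15, 95% interval -0.22 to 0.42, adjusted p = 0.68). Stat5b (ENSMUSG00000020919, chr11:100780731-100859004), the more abundant form in liver, was at 38.8, 40.4 and 32.7 CPM in WT and at 43.6, 40.2, 45.9 and 41.5 CPM in TET1 KO. Here 3 of the 4 TET1 KO livers lay above all WT livers, TET1 KO replicate 2 lay just below WT replicate 2, and WT replicate 3 was lowest. The log2 fold change of Stat5b was 0.20 (SE 0.13, 95% interval -0.08 to 0.48, adjusted p = 0.33). The log2 ratio of Stat5a to Stat5b counts within a liver was -1.65 ± 0.121 (SD) in WT and -1.76 ± 0.129 in TET1 KO, a difference of -0.11 with an exact permutation p of 0.286, or 0.572 adjusted over the 4 pairs of members compared this way.

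Igf1 (ENSMUSG00000020053, chr10:87858265-87937047) encodes insulin-like growth factor 1, the hormone through which growth hormone acts on much of the body. It was at 510.1, 465.2 and 594.5 CPM in WT and at 549.5, 640.8, 537.5 and 474.0 CPM in TET1 KO. The groups ran through the same range, with the second lowest liver, TET1 KO replicate 4, and the lowest, WT replicate 2, close together. The log2 fold change was 0.07 (SE 0.16, 95% interval -0.29 to 0.43, adjusted p = 0.795), with ratios from 0.821 to 1.35 inside the interval, and its sign depended on the setting: without WT replicate 2 it was -0.01, without TET1 KO replicate 2 it was -0.02, and with library size as the only scaling it was -0.02. The antisense gene Igf1os, which overlaps Igf1, had 8 to 26 counts against at least 8776 for Igf1.

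Igfals (ENSMUSG00000046070, chr17:24877844-24882011) encodes the acid-labile subunit, the liver protein that holds IGF1 and a binding protein in a long-lived complex in blood. Its level was 82.9, 79.0 and 106.6 CPM in WT and 103.4, 115.3, 95.8 and 93.2 CPM in TET1 KO. All 4 TET1 KO livers exceeded WT replicates 1 and 2, and WT replicate 3 exceeded all but TET1 KO replicate 2. For Igfals, which the predicted gene Gm41549 overlaps, the log2 fold change was 0.19 (SE 0.15, 95% interval -0.13 to 0.51, adjusted p = 0.421). Within a liver the log2 ratio of Igf1 to Igfals was 2.62, 2.56 and 2.48 in WT and 2.41, 2.47, 2.49 and 2.35 in TET1 KO. This ratio was the steadiest of the 4 compared, with an SD of 0.0714 in WT and 0.0648 in TET1 KO, and its difference of -0.12 had an exact permutation p of 0.114 (0.456 adjusted over the 4 pairs).

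The 2 inhibitor genes differed from the other 6 in how far they ranged between mice of one genotype. Socs2 (ENSMUSG00000020027, chr10:95383903-95417321) encodes a suppressor that marks the growth hormone receptor for degradation. It was at 17.6, 9.70 and 26.7 CPM in WT and at 13.9, 6.20, 3.27 and 16.0 CPM in TET1 KO, behind which stood 64 to 483 counts. TET1 KO replicates 2 and 3 were lower than every WT liver, and replicates 1 and 4 fell between WT replicates 1 and 2. The log2 fold change was -0.86 (SE 0.47, 95% interval -1.90 to 0.18, adjusted p = 0.262, exact permutation p = 0.229), and the ratio could lie anywhere from 0.267 to 1.13. The fitted ratio was 0.549. With 1 liver left out, the log2 fold change of Socs2 ran from -1.21 without TET1 KO replicate 4 to -0.49 without WT replicate 3, and it was not called in any of these fits. The predicted gene Gm33230 overlaps Socs2.

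Cish (ENSMUSG00000032578, chr9:107296659-107302784), whose start holds the 2 motif matches printed above, encodes a suppressor that competes for docking sites on cytokine receptors. Its level was 19.4, 3.36 and 8.78 CPM in WT and 41.8, 2.61, 1.64 and 2.92 CPM in TET1 KO, from 394, 81 and 159 counts and from 667, 37, 32 and 63 counts. One TET1 KO liver, replicate 1, was the highest of the 7 and the other 3 were the lowest. The highest liver exceeded the lowest 25.5-fold, both of them TET1 KO. The fitted log2 fold change was 0.21 (SE 0.99, 95% interval -1.96 to 2.39, adjusted p = 0.906), while the difference of the mean log2 CPM was -0.77 (exact permutation p = 0.6). Without TET1 KO replicate 1 the log2 fold change of Cish was -2.13 (SE 0.54, 95% interval -3.33 to -0.94), with an unadjusted p of 0.00265 and an adjusted p of 0.0819 in edgeR. That fit called 1.28% of genes tested. Leaving out WT replicate 2 turned it as well, to -0.23, and no direction of Cish can be read from these livers.

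**Figure D2:**
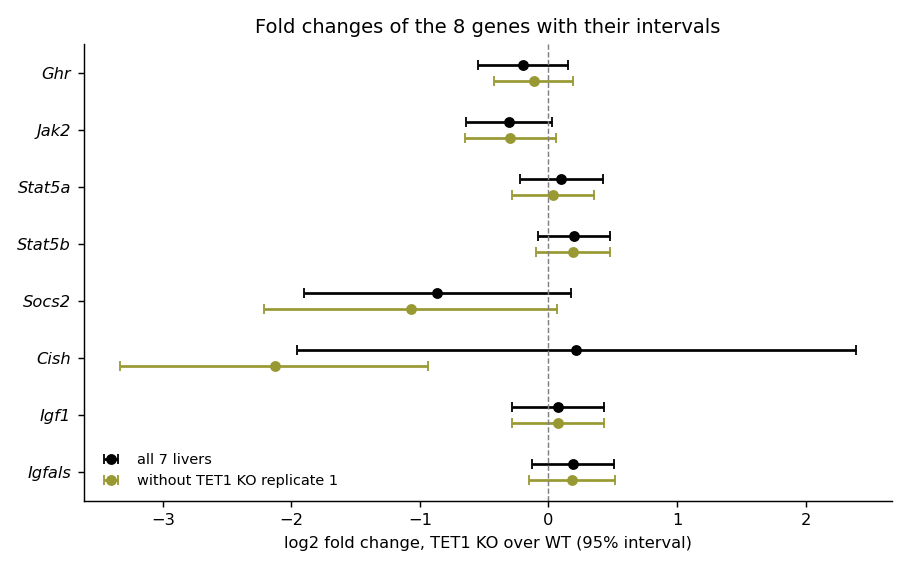
Log2 fold change of each of the 8 genes, TET1 KO over WT, from edgeR with its 95% interval (horizontal bars), for all 7 livers and without TET1 KO replicate 1. All intervals from 7 livers include 0, and the point for Cish moves from 0.21 to -2.13 when that liver is left out.

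The contrast between the inhibitors and the rest is clearest in the SD of log2 CPM between livers of one genotype. That SD was 1.80 for Cish and 0.936 for Socs2 (log2 units). It lay between 0.121 and 0.181 for the other 6, in the order Stat5b, Stat5a, Jak2, Ghr, Igf1 and Igfals from low to high. Among the 13197 genes with a mean of at least 1 CPM, 99.9% had a lower SD than Cish and 98.7% a lower SD than Socs2, whereas 28.4% had a lower SD than Igfals. Without TET1 KO replicate 1 the SD of Cish was 0.932, close to the 0.952 of Socs2, and 98.9% of genes still had a lower one, with an 11.8-fold range over the 6 livers. The SD of Socs2 ran from 0.728 without TET1 KO replicate 3 to 1.04 without WT replicate 1. Genotype means were 9.83 to 18.0 CPM for Cish and Socs2 and 10.8 to 13.3 CPM for Jak2 and Stat5a, whose SDs were 0.148 and 0.128. Over all 7 livers, the highest exceeded the lowest 8.14-fold for Socs2, and by between 1.29-fold and 1.54-fold for the 6 genes other than the inhibitors. The ratio of Socs2 to Cish was also unsteady, with a log2 value of 0.998 ± 0.985 (SD) in WT and 0.778 ± 1.70 in TET1 KO, and its difference of -0.22 had an exact permutation p of 0.83.

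**Figure D3:**
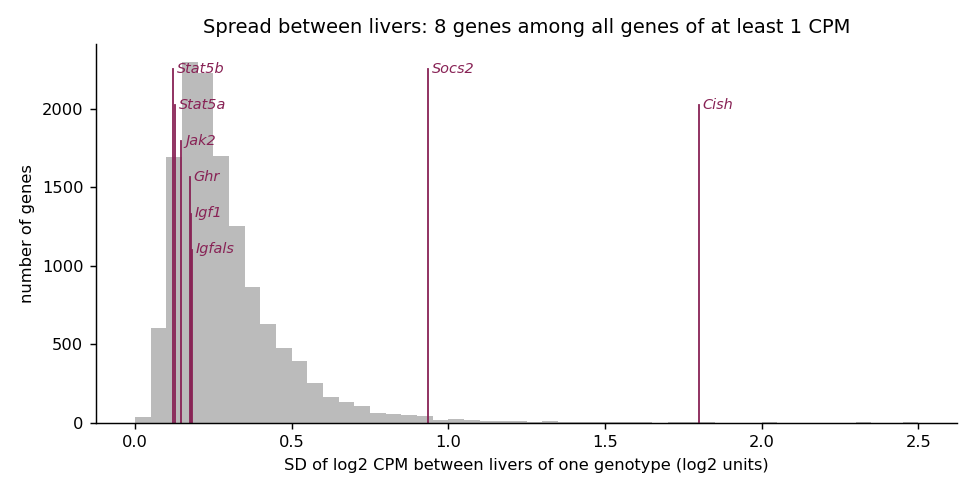
Number of genes (vertical axis) by SD of log2 CPM between livers of one genotype (horizontal axis, log2 units) for all genes with a mean of at least 1 CPM, with the 8 genes marked by lines whose heights carry no value. Stat5b, Stat5a, Jak2, Ghr, Igf1 and Igfals lie between 0.121 and 0.181, and Socs2 at 0.936 and Cish at 1.80 lie in the right tail (Cish at 0.932 without TET1 KO replicate 1).

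Levels of different genes were compared as CPM per kilobase of the longest coding transcript. Ghr was the highest by this measure, with a mean of 117 CPM per kb over the 7 livers and a range of 90.6 to 139. Igf1 followed at 75.7 (65.3 to 90.0), Igfals at 36.8 (30.1 to 43.9) and Stat5b at 7.75 (6.27 to 8.80), and each of the first 3 lay above the next in 7 of 7 livers without overlap of the ranges. Cish at 4.03 (0.574 to 14.7), Stat5a at 3.17 (2.86 to 3.70), Socs2 at 3.14 (0.771 to 6.28) and Jak2 at 2.35 (1.85 to 2.72) had ranges that overlapped from one to the next. Receptor and secreted-product transcripts thus exceeded those of the kinase, the STAT5 factors and the inhibitors per unit of length. The rank of Ghr over Igf1 rests on the transcript lengths used, 4.17 and 7.12 kb. In CPM, the means of Ghr were 525.8 in WT and 458.5 in TET1 KO, and those of Igf1 were 523.3 and 550.4.

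How the genes moved together from mouse to mouse was described by the correlation of deviations from the own genotype mean (log2 CPM) over the 7 livers, which share their scaling and for which no p is given. Igf1 and Igfals deviated together, with Pearson's r of 0.93 and Spearman's rho of 0.929, and r stayed between 0.906 and 0.959 when any 1 liver was left out. Ghr and Cish deviated in opposite directions, with r of -0.98 and rho of -0.964, and between -0.992 and -0.978 with any 1 liver left out. The Ghr deviations were small, from -0.269 in TET1 KO replicate 1 to 0.165 in TET1 KO replicate 3, where Cish stood at 3.08 and -1.51. Socs2 and Cish, the 2 inhibitors, had an r of 0.606 (0.47 to 0.854). Igf1 had an r of 0.00327 to Socs2 (-0.311 to 0.466 with 1 liver left out) and of 0.121 to Cish (-0.0926 to 0.391). Igfals and Stat5b had an r of -0.853, which ranged from -1.0 to -0.563 with 1 liver left out. Apart from the genes ranked next, these pairs were picked from 28 after their values were seen.

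**Figure D4:**
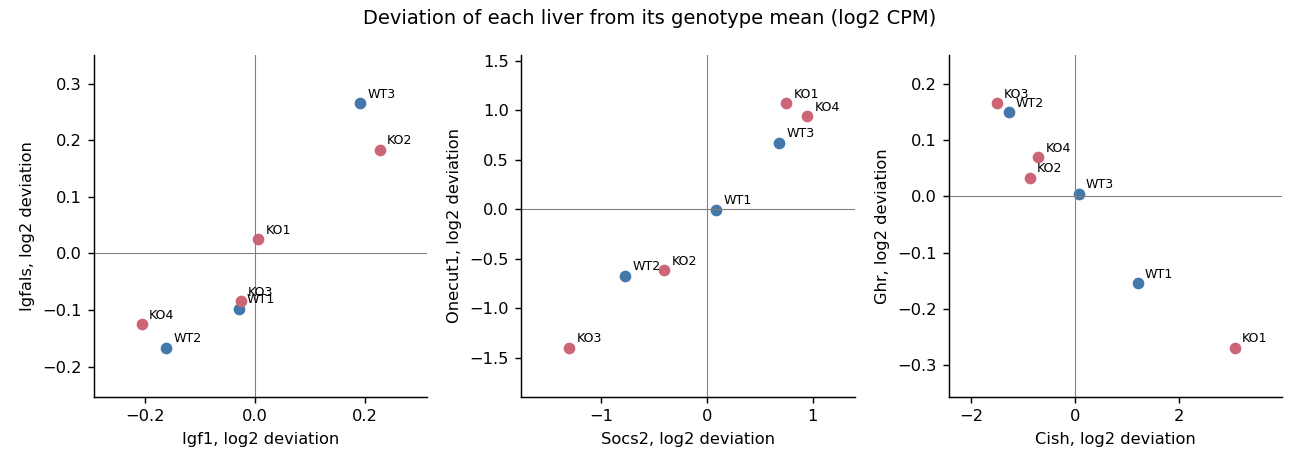
Deviation of each liver from its genotype mean in log2 CPM (both axes, log2 units) for Igf1 and Igfals, Socs2 and Onecut1, and Cish and Ghr, with WT livers in blue and TET1 KO livers in red, labelled by replicate. The first 2 panels run upward (r = 0.93 and 0.986) and the third downward (r = -0.98).

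Of all genes with a mean of at least 1 CPM, those whose deviations were most like Socs2 were the pseudogene Rpl21-ps8 (r = 0.992), Onecut1 (0.986) and Efhd2 (0.986), and 48 genes had an r over 0.9. Onecut1, which encodes the liver-enriched factor HNF6, was at 7.97, 4.97 and 12.8 CPM in WT and at 9.52, 2.89, 1.64 and 8.72 CPM in TET1 KO, the same order of high and low livers as Socs2 except that WT replicate 1 and TET1 KO replicate 1 changed places. Its own log2 fold change was -0.58 (adjusted p = 0.487). For Cish the most alike were Mmaa (0.994), Gm45315 (0.994) and Pcyox1l (0.99), with 233 genes over 0.9. For Igf1 they were D330023K18Rik (0.988), Gm42547 (0.984) and Gimap3 (0.984), with 61 genes over 0.9, and for Igfals Ptrh2 (0.998), Acp2 (0.979) and Serpina11 (0.978), with 57. These are the top ranks among 13197 genes over 7 livers, and they are given as a description.

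Around the members, 54 other genes of growth hormone and IGF signalling were listed, with earlier results of these data known, and 48 were tested. Of these, 2 were higher in TET1 KO, against 0.874% of all genes tested, and 0 were lower, against 1.15%. Their median log2 fold change was 0.0471. The called genes were Irs2, a relay of the insulin and IGF1 receptors, and Igfbp2, which encodes an IGF-binding protein secreted by hepatocytes. Both have a part in the IGF or insulin arm, and any part in growth hormone signalling was not tested here. At an unadjusted p under 0.05 there were 10 of 48, against 26.3% of all genes tested, and DESeq2 called 6, against 9.14%.

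Among 7 other ligand and receptor genes, 5 were tested and 0 were called in edgeR, while DESeq2 called 2, Igf1r and Igf2r. Gh, the hormone itself, had 0 counts in every liver, and Igf2 was below the filter. Igf1r, the receptor for IGF1, was at 5.02, 3.27 and 4.03 CPM in WT and at 9.64, 9.30, 7.42 and 6.22 CPM in TET1 KO. Its groups did not overlap, and its log2 fold change of 0.98 (SE 0.22) missed the threshold in edgeR (adjusted p = 0.0502) and passed it in DESeq2 (0.00602). Igf1r also passed in edgeR with no filter (0.0332), robust dispersions (0.0458), the replicate block (0.0257) and without TET1 KO replicate 4 (0.0279), and its adjusted p reached 0.24 with 1 liver left out. Igf2r, whose product clears IGF2, had a log2 fold change of -0.45 without overlap of the groups (adjusted p = 0.0873 in edgeR, 0.0477 in DESeq2). The prolactin receptor gene Prlr was at 103.7, 130.4 and 103.1 CPM in WT and at 30.7, 135.6, 104.7 and 106.1 CPM in TET1 KO (log2 fold change -0.25, adjusted p = 0.679). Its lowest liver was TET1 KO replicate 1, where Cish was highest. The log2 fold changes were 0.13 for Insr and -0.33 for Lepr, with adjusted p of 0.522 and 0.621.

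Of 15 signal relay genes, all tested, 1 was called higher and 0 lower in edgeR, and DESeq2 called 2, Irs2 and Pik3r1. Irs2 was at 6.60, 6.18 and 4.64 CPM in WT and at 13.5, 8.31, 10.8 and 13.8 CPM in TET1 KO, a log2 fold change of 1.00 (SE 0.22, adjusted p = 0.0437). The call of Irs2 was lost in edgeR without WT replicate 1, 2 or 3 or TET1 KO replicate 1 or 3, with adjusted p of 0.0548, 0.176, 0.11, 0.0782 and 0.103, and with library size as the only scaling (0.0577). Pik3r1, the gene of a regulatory subunit of PI3-kinase, had a log2 fold change of -0.50 without overlap (adjusted p = 0.0789 in edgeR, 0.0282 in DESeq2). Stat3, the STAT gene used by interleukin-6, was not called (log2 fold change -0.09, adjusted p = 0.831).

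Of 12 inhibitor genes other than Socs2 and Cish, 11 were tested and 0 were called, with a median log2 fold change of 0.0609. Socs3, which ends signals of interleukin-6 and leptin and belongs to the same family as Socs2 and Cish, was at 5.76, 4.77 and 12.1 CPM in WT and at 37.1, 11.8, 7.72 and 9.05 CPM in TET1 KO (log2 fold change 1.13, SE 0.53, adjusted p = 0.205). As with Cish, TET1 KO replicate 1 was the highest liver for Socs3. The 2 genes had an r of 0.821 over the 7 livers and of 0.293 without TET1 KO replicate 1. Ptpn1, the gene of a phosphatase acting on JAK2, had a log2 fold change of -0.23 (adjusted p = 0.396), and Socs1 was below the filter.

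IGF-binding and release genes numbered 11, of which 8 were tested, 1 was called higher and 0 lower. Igfbp2 was at 86.2, 68.5 and 111.5 CPM in WT and at 455.5, 357.6, 476.0 and 395.8 CPM in TET1 KO, all above the WT livers (log2 fold change 2.25, SE 0.20, adjusted p = 0.00116). Igfbp3, whose protein joins IGF1 and the Igfals product in the circulating complex, was at 39.0, 30.4 and 12.6 CPM in WT and at 13.4, 10.5, 11.5 and 15.3 CPM in TET1 KO. Its log2 fold change was -1.11 (SE 0.30), which edgeR did not call (adjusted p = 0.0747) and DESeq2 did (0.00908). Igfbp1 had a log2 fold change of -0.44 (adjusted p = 0.561). Thus, of the 3 parts of that complex, Igf1 and Igfals passed in neither tool and Igfbp3 in DESeq2 alone.

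Liver transcription factor genes numbered 9, all tested and 0 called, with a median log2 fold change of 0.278. Bcl6, a repressor that shares DNA sites with STAT5, was at 13.9, 71.8 and 36.6 CPM in WT and at 95.6, 81.8, 63.3 and 77.9 CPM in TET1 KO (log2 fold change 0.96, SE 0.40, adjusted p = 0.164). WT replicate 2 lay among the TET1 KO livers. Cux2, a factor of female liver, was at 0.665 CPM or less in every liver, with a log2 fold change of 0.52 (adjusted p = 0.637).

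**Figure D5:**
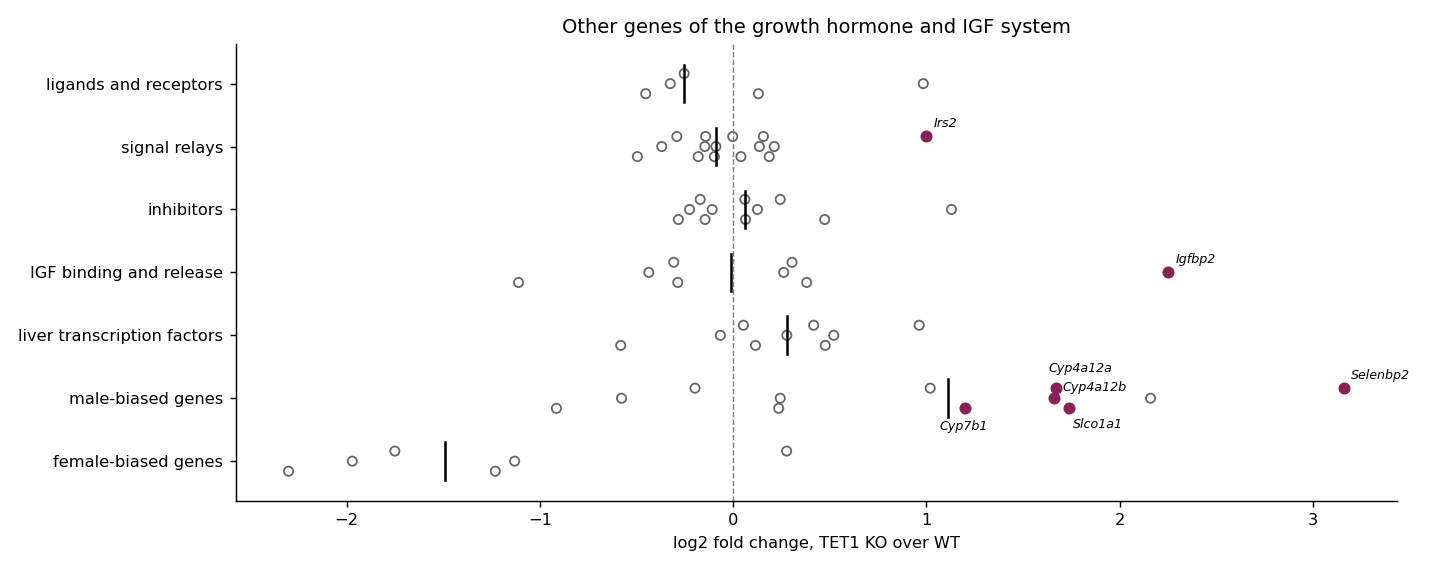
Log2 fold change, TET1 KO over WT (horizontal axis), of each tested gene in 7 lists (rows, spread vertically for legibility), with genes past an adjusted p of 0.05 filled and named, the others open, and the median of each list as a black bar. Filled points are Irs2, Igfbp2 and 5 male-biased genes, all to the right of 0.

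Genes with a sex bias in mouse liver, which the pattern of growth hormone pulses sets through STAT5B, were read from 2 lists. Both lists were chosen with earlier results of these data known, so their shares beside those of all genes are a description only. Of 13 male-biased genes, 12 were tested, and in edgeR 5 were higher in TET1 KO and 0 were lower, against 0.874% and 1.15% of all genes, with a median log2 fold change of 1.11. Slco1a1, an organic anion transporter gene, was at 45.1, 64.4 and 72.0 CPM in WT and at 272.5, 194.0, 202.4 and 139.9 CPM in TET1 KO (log2 fold change 1.74, adjusted p = 0.00736). The others were Cyp7b1 (1.20, adjusted p = 0.0271), Selenbp2 (3.16, adjusted p = 0.0264), Cyp4a12a (1.67, adjusted p = 0.0198) and Cyp4a12b (1.66, adjusted p = 0.0207), of which the last 2 are near-identical copies whose reads may be shared. With robust dispersions in edgeR, Selenbp2 was not called (adjusted p = 0.0756). The list was not uniform: Elovl3, at -0.91, was not called in edgeR (adjusted p = 0.104) and was called lower in DESeq2 (0.0341). DESeq2 called 7 genes of the list, 6 higher and 1 lower. Of 14 female-biased genes, 6 were tested and 0 were called in either tool, against 2.02% of all genes in edgeR and 9.14% in DESeq2. Their median log2 fold change was -1.49, with 5 below 0 and 1 above. At an unadjusted edgeR p under 0.05 there were 4 of 6, against 26.3% of all genes tested. The list summed to 333.2, 441.6 and 124.5 CPM in WT and to 72.7, 97.2, 169.0 and 182.8 CPM in TET1 KO. WT replicate 3 thus lay among the TET1 KO livers. The count of male-biased genes called higher in edgeR was 2 without WT replicate 1, 1 without WT replicate 2, 1 without TET1 KO replicate 2 and 2 without TET1 KO replicate 3. Among all genes tested, those fits called 125, 16, 45 and 31 higher, against 129 from all 7 livers. In both sex-biased lists together, 7 genes were called higher without WT replicate 3. Without TET1 KO replicate 1 that number was 4, and without TET1 KO replicate 4 it was 5. In the same livers Ghr, Jak2 and Stat5b had log2 fold changes of -0.20, -0.31 and 0.20, as given above, none of them past the threshold.

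Cell type markers were set beside these values. Summed over the list, cholangiocyte markers were at 6.47 to 9.93 CPM in WT and at 15.4 to 24.3 CPM in TET1 KO, without overlap, with 0 of the 4 genes called in edgeR and 2 in DESeq2 (Sox9, 0.00286, and Epcam, 0.0421, both higher). Epcam and Krt19 were high in TET1 KO replicate 4, at 4.87 and 6.68 CPM against 0.689 to 0.986 and 1.06 to 1.69 CPM in the other TET1 KO livers. Without it their edgeR log2 fold changes went from 2.09 to 0.89 and from 1.48 to 0.43, while that of Sox9 went from 1.22 (adjusted p = 0.0569) to 1.37 and passed the threshold (0.0259). Macrophage markers ran from 153 to 273 CPM in WT and from 142 to 308 CPM in TET1 KO, and stellate cell markers from 80.4 to 132 and from 86.3 to 113 CPM. DESeq2 called Col1a1 of the stellate list lower (0.0234) and Apoa1 of the hepatocyte list higher (1.67e-06), with 0 of either list called in edgeR. Endothelial markers, at 126 to 128 CPM in WT and 106 to 124 CPM in TET1 KO, also did not overlap, with 0 of 5 genes called in edgeR and 1 in DESeq2 (Lyve1, lower, 0.014). T and NK cell markers were at 1.45 to 2.10 and 1.69 to 3.59 CPM, B cell markers at 1.74 to 3.69 and 2.64 to 7.04 CPM, and neutrophil markers at 2.03 to 31.1 and 1.31 to 8.17 CPM. The part of these cells in the levels of the 8 genes was not tested. Igf1 and Socs2 lie on the chromosome of Tet1, at 25.0 and 32.5 Mb from it.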

How the data were processed

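Livers were numbered in the labels as replicates, 3 WT and 4 TET1 KO, each taken here as 1 mouse, and p-values measure the spread between these samples. Per the labels, total RNA was poly(A)-selected or depleted of rRNA and made into stranded libraries. The authors deposited raw counts per gene for each mouse, and their processing notes name Trimmomatic 0.36, GSNAP, featureCounts 1.5.3 and build GRCm38. Whether counting used strand is not given in the sources used here. Each table had 51431 entries, of which 5 repeated an identifier and were dropped. Library totals ran from 15005277 to 22746138 counts.

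Counts were filtered by filterByExpr, scaled by TMM and fitted over all genes with edgeR 4.0.16 in R 4.3.3 (quasi-likelihood test, no covariate). P-values were adjusted by Benjamini-Hochberg over 14754 genes, with calls under 0.05. Permutation tests were exact and two-sided. Those of single members used log2 CPM with a prior count of 2, and those of pairs used log2 ratios of raw counts. DESeq2 1.42.0, other scalings and filters, robust dispersions, a replicate block and each liver left out were alternatives. The spread with each liver left out, and the fits of Epcam, Krt19 and Sox9 without TET1 KO replicate 4, were added after seeing the data. The fitting script was tested on simulated data. The members and gene lists were chosen with earlier results of these data known. Named beyond the members were list genes past the threshold, 15 listed pathway genes fixed by name (1 of them is not reported here), and the 3 genes most like each of Socs2, Cish, Igf1 and Igfals. Elovl3, Gh, Igf2, Igf2r, Pik3r1, Sox9, Epcam, Krt19, Lyve1, Apoa1, Col1a1 and Igf1os were named after their values were seen. Lengths came from the longest coding transcript of each gene in an older annotation, matched by Ensembl identifier. Coordinates and promoter windows are those of RefSeq on GRCm38.p6.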

Additional observations from a re-analysis of the deposited data

Results flagged for a closer look

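In a group of 4 livers, a sample was looked at again where its gap to the nearest other as a share of the group's whole range passed Dixon's 95% critical value. Of 49 genes and 17 lists examined in the TET1 KO livers, 10 passed. Chance gives about 1 in 20 for independent items chosen without their values. Some of these genes were named for their likeness to a member or after their values were seen, so the shares cannot be compared. Cish had a gap of 0.968, with TET1 KO replicate 1 at 41.8 CPM and the other 3 at 1.64 to 2.92 CPM. Socs3 had a gap of 0.86 for the same liver, at 37.1 CPM against 7.72 to 11.8 CPM. Gm45315 (0.885, at 4.07 CPM against 2.10 to 2.32 CPM) and Pcyox1l (0.941, at 3.13 CPM against 1.48 to 1.58 CPM) were also highest in TET1 KO replicate 1, and both had been named for their likeness to Cish. Ptpn1 had a gap of 0.848, with TET1 KO replicate 3 at 15.0 CPM below the others at 17.5 to 17.9 CPM. Serpina11, named for its likeness to Igfals, had a gap of 0.85, with TET1 KO replicate 2 at 79.7 CPM and the others at 58.1 to 61.4 CPM. The summed T and NK cell markers had a gap of 0.865, also from TET1 KO replicate 2, at 3.59 CPM against 1.69 to 1.95 CPM. Epcam (0.929) and Krt19 (0.888), of the cholangiocyte list, had TET1 KO replicate 4 at 4.87 and 6.68 CPM against 0.689 to 0.986 and 1.06 to 1.69 CPM. Pik3r1 had a gap of 0.843, with the same liver at 65.8 CPM and the others at 54.4 to 56.2 CPM.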

How the results depend on the processing

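No member was called in any of 112 alternative fits, and 106 of these kept the direction. The log2 fold change of Cish turned to -0.43 with the replicate block, -0.23 without WT replicate 2 and -2.13 without TET1 KO replicate 1 (leaving out 1 liver, -2.13 to 1.00). That of Igf1 turned to -0.0214 with library size only (its difference of mean log2 CPM to -0.022), -0.0117 without WT replicate 2 and -0.0223 without TET1 KO replicate 2 (-0.0223 to 0.154). The difference in the Socs2 to Cish ratio turned to 0.05, 0.08 and 0.57 without WT replicate 2, WT replicate 3 or TET1 KO replicate 1 (-0.79 to 0.57), and that in the Ghr to Jak2 ratio to -0.0115 without TET1 KO replicate 3 (-0.0115 to 0.195). Counts over all genes, 129 higher and 169 lower, became 633 and 699 in DESeq2, 245 and 347 with no filter, 671 and 656 with the replicate block, and 107 and 312 with library size only, where 25.5% of calls were higher against 43.3%. Leaving out 1 liver gave 16 to 427 higher and 21 to 464 lower. Deviations of same-numbered livers had r of 0.209, -0.123 and -0.0964, and those of unlike numbers ran from -0.3 to 0.311. Whether the numbers mark pairs is not given in the sources used here and cannot be decided from these values. The replicate block left the direction of the 7 members other than Cish and the call of all 8 as they were. Pathway genes called higher were 1 with library size only and 1 to 3 without 1 liver. Those called lower were 3 in DESeq2, 1 with no filter and 0 to 1 without 1 liver. Sex-biased genes called higher were 1 to 7 without 1 liver, and those called lower 1 in DESeq2, 2 with no filter and 0 to 2 without 1 liver. The causes were not tested. Cish rested on 37 or fewer counts in 2 livers and Socs2 on 64 to 88 counts in 2, and 3 against 4 livers limits what could be seen.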
